A study of Mus musculus with 12 samples.

Results

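The *miR-30* family was examined in livers of mouse fetuses at E18.5, by miR-seq, which counts the reads of each mature miR. The family was taken by name from the table of counts and has 7 members among the 1927 miRs listed. These are the 5p strands of *miR-30a*, *miR-30b*, *miR-30c*, *miR-30d* and *miR-30e* and the 3p strands of *miR-30a* and *miR-30e*. Each had a row of its own, and all 7 passed the filter on low counts that left 388 miRs for testing. The table also holds the 4 other 3p strands of these hairpins, *miR-30b-3p*, *miR-30c-1-3p*, *miR-30c-2-3p* and *miR-30d-3p*, which are given beside the members.

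The samples were livers of 5 WT and 7 Mir483Pat-KO female fetuses from shared litters, with 1 library per fetus. Mir483Pat-KO fetuses inherited from the father a deletion of *Mir483*, a miR gene inside the imprinted *Igf2* gene. The deletion was made constitutively in embryonic stem cells, from C57BL/6N, with the selection cassette removed there by Cre, so it was present in every cell type of the liver, and mice were kept on C57BL/6J. The labels do not give the litter or the stem cell clone behind each fetus. Of the deleted gene, *miR-483-3p* had 733 to 1281 reads per WT library and 0 to 19 per Mir483Pat-KO library, and *miR-483-5p* had 245 to 371 and 0 to 4, so each library matched its label.

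A miR acts by pairing of its seed, bases 2 to 8 from its 5′ end, with sites in mRNAs, so miRs with a common seed share most of their predicted targets. A miR hairpin is cut into a 5p and a 3p strand, and the strand that is kept by Argonaute gives most of the reads. The *miR-30* family is broadly expressed in epithelia and is known in developing liver for its expression in the forming bile ducts and for a part in the formation of the biliary tree. Its 5p strands are the guide strands that carry the *miR-30* seed.

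The mature sequences of the members and of their nearest relatives are shown because the shared seed and the few bases that differ set how well their reads can be told apart. The seed is in capitals. All are RefSeq entries on GRCm38.p6, where 5 of the 7 members were matched, and the others are mmu-miR-30b-5p and mmu-miR-30d-5p.
mmu-miR-30a-5p: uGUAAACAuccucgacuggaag
mmu-miR-30e-5p: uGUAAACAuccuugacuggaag
mmu-miR-30c-5p: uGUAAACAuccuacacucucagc
mmu-miR-30a-3p: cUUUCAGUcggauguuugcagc
mmu-miR-30e-3p: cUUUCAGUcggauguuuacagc
mmu-miR-30c-1-3p: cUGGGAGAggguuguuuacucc
mmu-miR-30c-2-3p: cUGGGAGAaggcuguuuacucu

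The printed 5p strands were identical over their first 12 bases. *miR-30a-5p* and *miR-30e-5p* differed at 1 of 22 positions, counted from 1 at the 5′ end (C13U, the base of *miR-30a* first), and their 3p strands also at 1 of 22 (G18A). *miR-30c-5p* differed from *miR-30a-5p* at 5 of the 22 positions compared (C13A, G14C, G18C, G19U and A20C). How the authors' counting treated reads that fit both *miR-30a* and *miR-30e* with a mismatch is not given in the sources used here. The split between these 2 is therefore less certain than their sum. *miR-30b-5p* and *miR-30d-5p* were not compared by sequence, so whether this limit also holds for their reads was not examined. Among the 1679 mature miRs of the sequence table, *miR-384-5p* was the only other with the *miR-30* seed, and it was listed at 0 reads in all 12 libraries. *miR-30f*, whose name places it in the family but whose seed is shifted by a base, was also listed at 0 in all 12.

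The genes lie in clusters. *Mir30a* is at chr1:23272269-23272339 and *Mir30c-2* at chr1:23291701-23291784, both on the plus strand and 19361 bases apart. *Mir30c-2* overlaps an exon of the long non-coding gene *Gm27028* in GENCODE, and no annotated host transcript spans *Mir30a*. *Mir30c-1* is at chr4:120769534-120769622 and *Mir30e* at chr4:120772606-120772697, both on the minus strand, 2983 bases apart and in introns of *Nfyc*, which encodes a subunit of the transcription factor NF-Y. *miR-30c-5p* is made from both *Mir30c-1* and *Mir30c-2*, so its reads carry no sign of which gene they came from.

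The libraries held 658665 to 1211160 counts on miRs. A floor of 3 counts corresponded to 2.48 to 4.55 CPM (counts scaled to a common library total), covering counting error only, and the least abundant member had at least 75 reads in every library. Levels are CPM after TMM scaling, which adjusts for differences in composition between libraries. Levels of different miRs are levels of reads, since ligation in the library preparation favours some sequences over others. In whole liver, fewer cells of a type and less miR per cell cannot be told apart. Sums over lists of cell type miRs showed the tissue as labelled, with 165442 to 214535 CPM of 3 hepatocyte miRs, *miR-122-5p*, *miR-192-5p* and *miR-194-5p*, in every library.

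The 5 guide strands together were among the most abundant miRs of the fetal liver. They took 11.6% ± 0.423 (SD, n = 5) of all miR counts in WT and from 10.3% to 12.9%, with a median of 11.4%, in Mir483Pat-KO. *miR-30a-5p* ranked 4 of the 388 miRs by mean level, *miR-30e-5p* ranked 8, and *miR-30c-5p* ranked 21. *miR-30d-5p* and *miR-30b-5p* were far lower, at ranks 68 and 76, and the 3p strands ranked 100 for *miR-30a-3p* and 184 for *miR-30e-3p*. A small number of strands thus held nearly all of the family's reads.

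**Figure D1:**
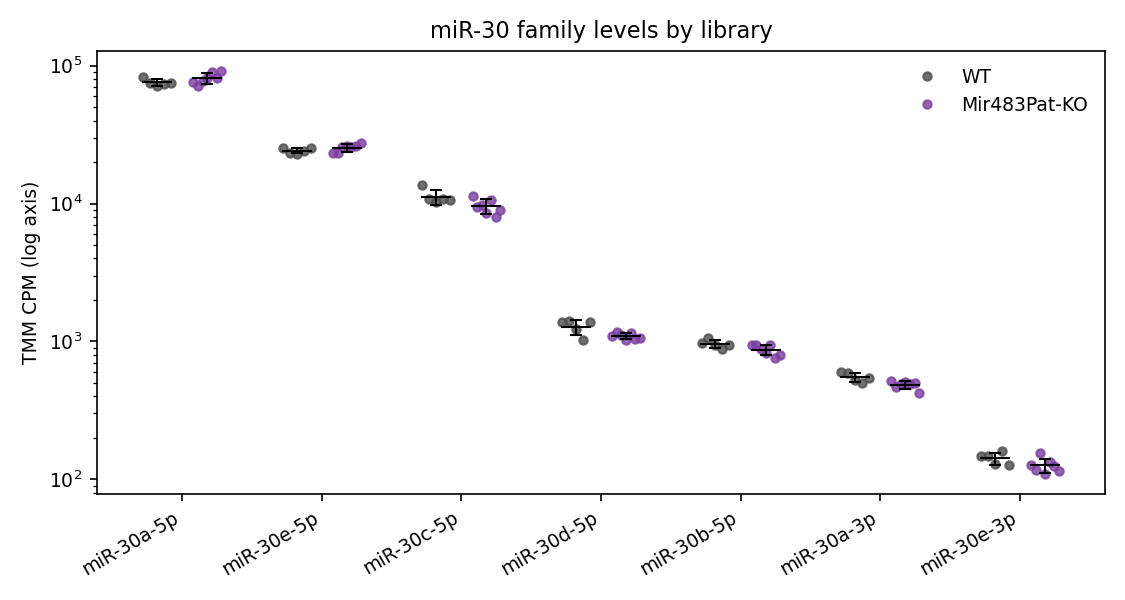
Level of each of the 7 members in every library, in TMM CPM on a log axis, with WT libraries in grey, Mir483Pat-KO libraries in purple, and black bars for the mean and SD of each group (n = 5 and 7). The members span from means of 79013 CPM for *miR-30a-5p* to 133 CPM for *miR-30e-3p* over the 12 libraries, and the genotypes overlap for each member.

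The order of the members was the same in all 12 libraries. Reads of *miR-30a-5p* were 2.96 to 3.51 times those of *miR-30e-5p*, although the strands differ by a single base. *miR-30e-5p* in turn had 1.85 to 3.27 times the reads of *miR-30c-5p*, and *miR-30c-5p* 7.69 to 10.5 times those of *miR-30d-5p*. The closest neighbours were *miR-30d-5p* and *miR-30b-5p*, at 1.16 to 1.47 reads of the former for each of the latter. Below *miR-30a-3p*, where 3p strands outside the 7 members stood next to *miR-30e-3p*, neighbours changed places in some libraries. *miR-30c-2-3p*, at a mean of 191 CPM, exceeded *miR-30d-3p*, at 162 CPM, in 9 of 12 libraries, *miR-30d-3p* exceeded *miR-30e-3p* in 10, and *miR-30e-3p* exceeded *miR-30c-1-3p*, at 87.6 CPM, in 11. The means of the first 2 of these pairs differed by no more than the SD of *miR-30d-3p* over the 12 libraries, 29.7 CPM, whereas *miR-30e-3p*, at 133 CPM (SD 16.1), and *miR-30c-1-3p* (SD 17.7) lay farther apart than either SD. *miR-30b-3p* was the scarcest strand, at 37 CPM.

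No member was called different between genotypes. With the quasi-likelihood test of edgeR, adjusted after Benjamini-Hochberg over the 388 miRs, 0 of the 7 members passed the threshold of 0.05, as did 2.06% of all miRs tested, 4 higher and 4 lower in Mir483Pat-KO. Without TMM, by library size alone, calls over all miRs were 3 higher and 11 lower. DESeq2 called 2 members among 27 miRs called in all, and limma-voom called 0 members. By fitted log2 fold change 5 members were lower in Mir483Pat-KO and 2 higher, while 49.7% of all miRs tested were lower. The median was -0.17 over the members and 0.0028 over all miRs tested. At an unadjusted p under 0.05 there were 3 members, against 17.5% of all miRs tested. All 3 were lower in Mir483Pat-KO, a direction and threshold met by 7.99% of all miRs. The groups did not overlap for 0 of the 7 members and for 2.84% of all miRs tested.

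Among the guide strands, the most abundant were the 2 that were higher by fitted value. *miR-30a-5p*, the main guide strand of the family, was at 82958, 74961, 71084, 73904 and 75427 CPM in the WT livers and from 70937 to 91728 CPM, with a median of 81313, in Mir483Pat-KO. The Mir483Pat-KO livers thus spanned the WT range, and 2 of 7 lay above it. The log2 fold change was 0.11 (standard error 0.063, 95% interval -0.028 to 0.24, adjusted p = 0.448 in the edgeR quasi-likelihood test).

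*miR-30e-5p*, made from the *Nfyc* intron, was at 25088, 23301, 22998, 24055 and 25441 CPM in WT and from 23243 to 27665 CPM, with a median of 25805, in Mir483Pat-KO. It lay above every WT library in 5 of 7 Mir483Pat-KO livers, by little. The log2 fold change was 0.072 (standard error 0.053, 95% interval -0.039 to 0.18, adjusted p = 0.528 by the same edgeR test). For both strands the interval holds small changes in either direction.

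The less abundant guide strands were lower by fitted value. *miR-30c-5p* was at 13572, 10734, 10180, 10731 and 10654 CPM in WT and from 8026 to 11373 CPM, with a median of 9510, in Mir483Pat-KO. Of the Mir483Pat-KO livers 5 of 7 were below every WT liver, and WT replicate 1 stood above all others. The log2 fold change was -0.23 (standard error 0.090, 95% interval -0.42 to -0.037, adjusted p = 0.191 in the edgeR quasi-likelihood test).

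*miR-30d-5p* came closest to the threshold. It was at 1373, 1396, 1222, 1026 and 1385 CPM in WT and from 1026 to 1164 CPM, with a median of 1086, in Mir483Pat-KO. WT replicate 4, at 1026 CPM, was as low as the lowest Mir483Pat-KO liver, while the other WT livers were above all 7. The log2 fold change was -0.23 (standard error 0.077, 95% interval -0.40 to -0.070, adjusted p = 0.119 by the same edgeR test). It was called without WT replicate 4 (adjusted p = 0.0229), by DESeq2's Wald test (adjusted p = 0.0239) and by edgeR without TMM (adjusted p = 0.0461). Over the alternatives with all libraries or the lower animal-number range, its adjusted p ran from 0.0239 to 0.980.

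*miR-30b-5p* was at 970, 1056, 948, 883 and 944 CPM in WT and from 762 to 945 CPM, with a median of 874, in Mir483Pat-KO. The highest Mir483Pat-KO livers lay within the WT range, and 4 of 7 were below it. The log2 fold change was -0.14 (standard error 0.072, 95% interval -0.30 to 0.0094, adjusted p = 0.349 in the edgeR quasi-likelihood test).

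The 3p members, which lack the *miR-30* seed, were lower by fitted value in Mir483Pat-KO than in WT, opposite in sign to the 5p strands of their own hairpins. *miR-30a-3p* was at 605, 586, 521, 501 and 543 CPM in WT and 422.5 to 515 CPM, with a median of 492, in Mir483Pat-KO, with 5 of 7 livers below every WT liver. It had a log2 fold change of -0.19 (standard error 0.070, 95% interval -0.34 to -0.041, adjusted p = 0.185 in the edgeR quasi-likelihood test), and DESeq2 called it (adjusted p = 0.0454, the lowest of a range up to 0.999 over the alternatives).

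*miR-30e-3p* was at 147, 147, 129, 160 and 126 CPM in WT and from 110 to 154 CPM, with a median of 124, in Mir483Pat-KO. The groups overlapped, with 4 of 7 Mir483Pat-KO livers below every WT liver. It had a log2 fold change of -0.17 (standard error 0.10, 95% interval -0.39 to 0.044, adjusted p = 0.448 by the same edgeR test). Of the 4 other 3p strands of the family's hairpins 0 had an unadjusted p under 0.05. *miR-30b-3p*, whose mean was 30.7 CPM in WT (SD 8.29, n = 5) and 41.5 CPM in Mir483Pat-KO (SD 13.0, n = 7), had the widest interval, with a log2 fold change of 0.43 (95% interval -0.074 to 0.94).

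**Figure D2:**
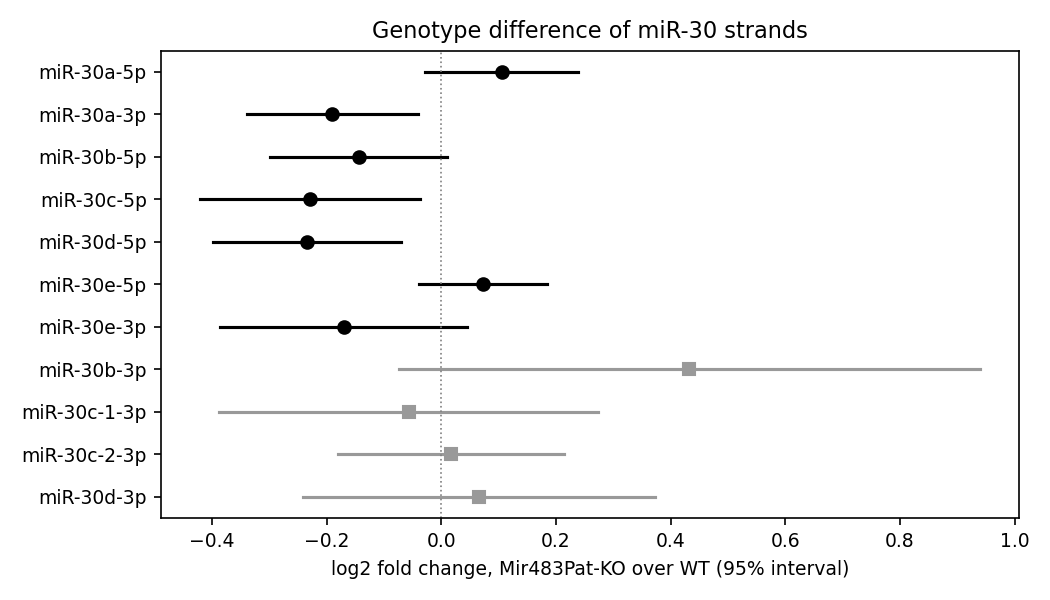
Log2 fold change of Mir483Pat-KO over WT for the 7 members (black circles) and the 4 other 3p strands (grey squares), with 95% intervals from the edgeR fit. The intervals of *miR-30a-3p*, *miR-30c-5p* and *miR-30d-5p* lie below 0 and those of the other 8 strands hold 0, before any adjustment for the 388 miRs tested.

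The labels number the library indices in order of genotype, so the index order and the genotype cannot be told apart. When the index number entered the fit as a linear term, fitted values were -0.074 for *miR-30a-5p*, -0.11 for *miR-30e-5p*, 0.095 for *miR-30b-5p* and 0.11 for *miR-30c-5p*, each opposite in sign to the value without it. In that order their standard errors were 0.11, 0.079, 0.12 and 0.14, against 0.063, 0.053, 0.072 and 0.090 without the index number. The other members kept their sign with smaller values, -0.11 for *miR-30d-5p*, -0.0013 for *miR-30a-3p* and -0.036 for *miR-30e-3p*, and 0 of the 7 had an unadjusted p under 0.05. The animal numbers in the labels fall in a lower range, with 4 fetuses of each genotype, and an upper range, with 1 WT and 3 Mir483Pat-KO fetuses, too few to compare there. Within the lower range the log2 fold changes were 0.00089 for *miR-30a-5p*, 0.027 for *miR-30e-5p*, -0.12 for *miR-30b-5p*, -0.22 for *miR-30c-5p*, -0.21 for *miR-30d-5p*, -0.18 for *miR-30a-3p* and -0.21 for *miR-30e-3p*, and none was called by edgeR.

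Summed over the 5 guide strands, the WT livers had a mean of 113258 CPM (SD 6555, n = 5) and the Mir483Pat-KO livers 118320 CPM (SD 8683, n = 7). The difference was 0.062 on the log2 scale with TMM and -0.0058 with library size alone, both smaller than the SD between Mir483Pat-KO livers, 0.11. The total of guide strands with the *miR-30* seed therefore did not differ between genotypes beyond its spread.

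The make-up of that total was next compared as the share of each guide strand in the 5p reads of the family, which does not depend on scaling between libraries. *miR-30a-5p* made up 66.9%, 67.3%, 66.8%, 66.8% and 66.3% of the 5p reads in the WT livers and from 67.0% to 70.5%, with a median of 69.1%, in Mir483Pat-KO. In 6 of 7 Mir483Pat-KO livers its share was above every WT liver. The mean difference was 1.91 percentage points (two-sided exact permutation test over 792 arrangements of the libraries, p = 0.0126).

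*miR-30c-5p* made up 10.9%, 9.63%, 9.56%, 9.70% and 9.36% in WT and from 6.84% to 10.1%, with a median of 8.28%, in Mir483Pat-KO. It was below every WT liver in 6 of 7 Mir483Pat-KO livers. The mean difference was -1.74 percentage points (two-sided exact permutation test, p = 0.0227), and without WT replicate 1 it was -1.46 (p = 0.0545 by the same exact test). On a centred log-ratio scale, where the strands weigh equally, the difference of *miR-30c-5p* was -0.14 log2 units (exact permutation p = 0.0619).

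The minor guide strands had shares near 1%. *miR-30d-5p* had 1.13% ± 0.127 (SD, n = 5) in WT livers, against 0.926% ± 0.0936 (SD, n = 7) in Mir483Pat-KO, so that the means differed by -0.20 percentage points (two-sided exact permutation test, p = 0.0139). *miR-30b-5p* had 0.850% ± 0.0687 (SD, n = 5) and 0.739% ± 0.0981 (SD, n = 7), and its difference of means, -0.11, had p = 0.0619 in the same exact test. *miR-30e-5p* had 21.4% ± 0.814 (SD, n = 5) of the reads in WT livers, against 21.5% ± 0.870 (SD, n = 7) in Mir483Pat-KO, so that the means differed by 0.14 (two-sided exact permutation test, p = 0.773).

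These 5 p-values were not adjusted, and the shares of a library sum to 100%, so they are not independent of each other. Within the lower animal-number range, where 4 against 4 cannot give a p below 0.0286, the differences were 0.84 percentage points for *miR-30a-5p* (exact permutation p = 0.0571), -1.28 for *miR-30c-5p* (exact permutation p = 0.114) and -0.14 for *miR-30d-5p* (exact permutation p = 0.171). The 3 Mir483Pat-KO livers of the upper range had *miR-30a-5p* shares of 69.3% to 70.5%, above the other 4 of their genotype, and the single WT liver of that range had 66.3%.

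**Figure D3:**
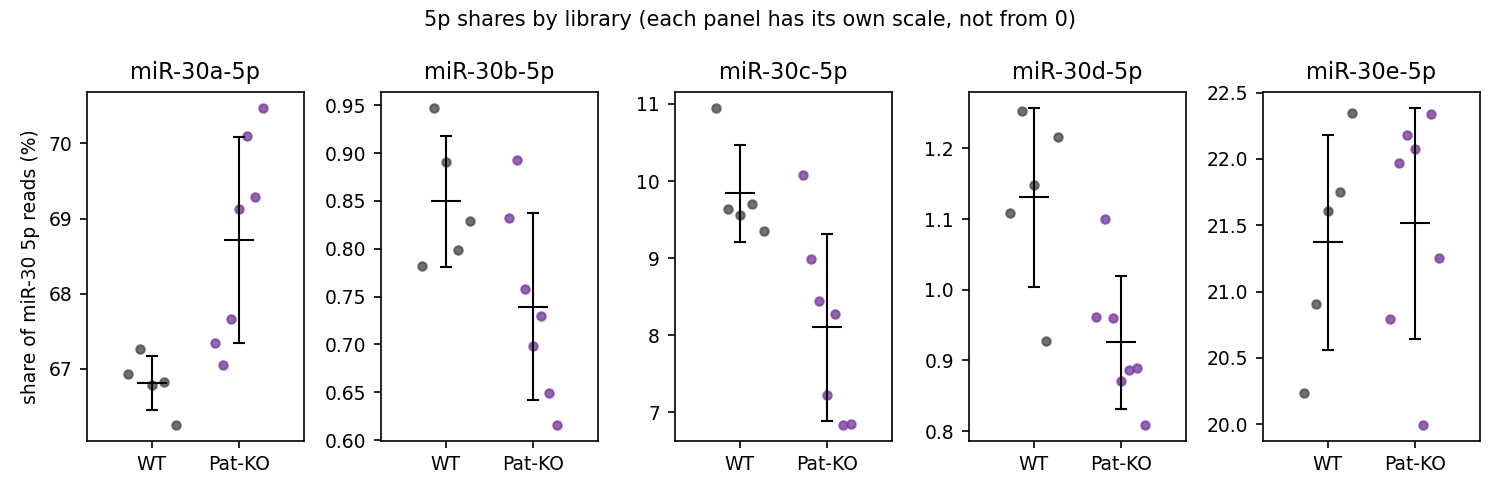
Share of each guide strand in the 5p reads of the family, in percent, for every WT (grey) and Mir483Pat-KO (purple) library, with black bars for the mean and SD (n = 5 and 7). The panels have separate axes that do not start at 0. The shares of *miR-30a-5p* lie between 66.3% and 67.3% in WT and reach 70.5% in Mir483Pat-KO, while those of *miR-30c-5p* reach down to 6.84%.

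Ratios between single strands need no family total. There were 6.11, 6.98, 6.98, 6.89 and 7.08 reads of *miR-30a-5p* per read of *miR-30c-5p* in WT and from 6.68 to 10.3, with a median of 8.47, in Mir483Pat-KO. The ratio of *miR-30a-5p* to *miR-30e-5p* was 3.13 ± 0.133 (SD, n = 5) in WT and from 3.05 to 3.51, with a median of 3.13, in Mir483Pat-KO, so the ranges of these near-identical strands largely overlapped. The ratio of *miR-30d-5p* to *miR-30b-5p* was 1.33 ± 0.119 (SD, n = 5) in WT and from 1.16 to 1.37, with a median of 1.25, in Mir483Pat-KO.

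*miR-30c-5p* cannot be traced to its gene, but its 3p strands can, since they differ at 3 of 22 positions (G9A, U12C and C22U, the base of *miR-30c-1-3p* first). Of the 3p reads of *miR-30c*, *miR-30c-2-3p* made up 67.7%, 67.0%, 73.0%, 62.2% and 70.4% in WT and from 58.5% to 73.7%, with a median of 71.5%, in Mir483Pat-KO. In every liver the strand from *Mir30c-2* on chromosome 1 thus had more reads than that from *Mir30c-1* on chromosome 4. The 3p strands of *miR-30c* had log2 fold changes of 0.017 for *miR-30c-2-3p* (95% interval -0.18 to 0.21) and -0.057 for *miR-30c-1-3p* (95% interval -0.39 to 0.27).

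Arm use was compared as the log2 ratio of 5p to 3p reads, with 0.5 added to each count. Rows that join several miRs, and strands whose names differ in more than 5p or 3p, were left out. That gave 95 hairpins with both strands past the filter. The 5p strand had more reads in 58.9% of these hairpins, and the median over hairpins was 0.75. The *miR-30c* hairpins were not among them, since their genes share 1 mature 5p strand and its reads cannot be divided between 2 hairpins. The 4 other *miR-30* hairpins were on the 5p side, at means of 7.55 for *miR-30e*, 7.27 for *miR-30a*, 4.66 for *miR-30b* and 2.86 for *miR-30d*, which are ranks 6, 7, 17 and 26. The hairpins of *miR-30a* and *miR-30e* had close arm ratios, and those of *miR-30b* and *miR-30d* were more even. The split of reads between *miR-30a* and *miR-30e* is uncertain, and its part in these ratios was not tested.

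**Figure D4:**
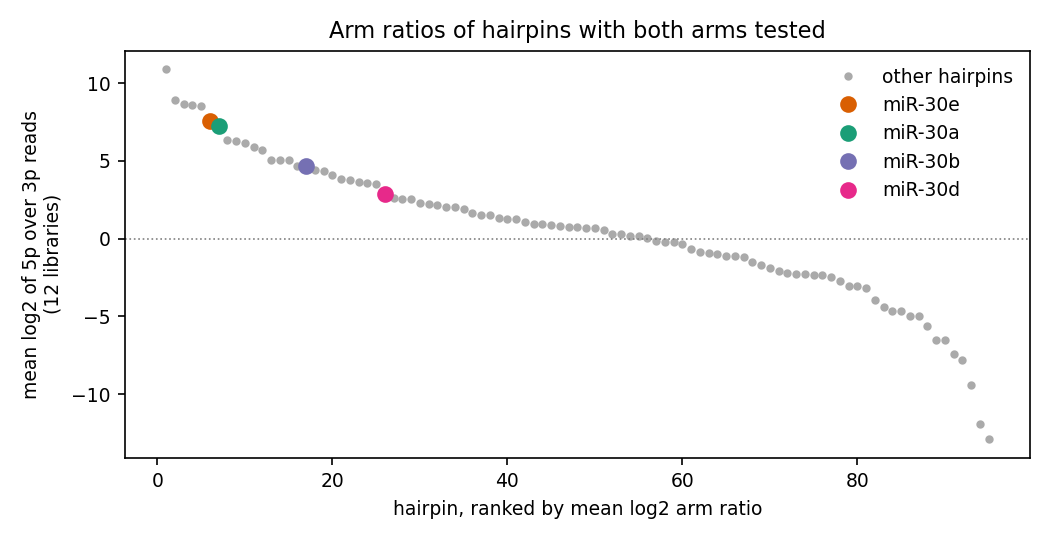
Mean log2 ratio of 5p to 3p reads over the 12 libraries for each of 95 hairpins, ranked from the most 5p-sided to the most 3p-sided, with the *miR-30* hairpins in colour. *miR-30e* and *miR-30a* stand next to each other at ranks 6 and 7, with *miR-30b* at 17 and *miR-30d* at 26.

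*miR-30a* gave 137, 128, 136, 147 and 139 reads of 5p per read of 3p in the WT livers and from 147 to 217, with a median of 161, in Mir483Pat-KO. The highest WT liver and the lowest Mir483Pat-KO liver were level at 147, just apart as raw ratios and just overlapping with 0.5 added, and the other 6 Mir483Pat-KO livers were above every WT liver. The log2 arm ratio averaged 7.10 in WT (SD 0.073, n = 5) and 7.39 in Mir483Pat-KO (SD 0.19, n = 7), a difference of 0.29 (standard error 0.10, 95% interval 0.070 to 0.51, adjusted p = 0.127 by limma with Benjamini-Hochberg adjustment over the 95 hairpins).

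*miR-30e* gave 171, 158, 178, 150 and 202 reads of 5p per read of 3p in WT and from 166 to 240, with a median of 199, in Mir483Pat-KO. Here 3 of 7 Mir483Pat-KO livers were above every WT liver. The difference in log2 arm ratio was 0.24 (standard error 0.11, 95% interval -0.0037 to 0.49, adjusted p = 0.261 by limma).

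Neither arm ratio passed the threshold, which 1.05% of the hairpins did, a single hairpin outside the family. At an unadjusted p under 0.05 there was *miR-30a*, against 17.9% of the hairpins, and on the log2 scale the groups did not overlap for 2.11% of the hairpins, none of them a *miR-30* hairpin. Fitted with the index number, the differences were -0.074 for *miR-30a* and -0.065 for *miR-30e*, and within the lower animal-number range they were 0.18 and 0.24. The ratio of *miR-30a* was highest in Mir483Pat-KO replicate 7, and without that library the difference was 0.23 (adjusted p = 0.213 by limma).

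The hairpins of *miR-30b* and *miR-30d* moved the other way in fitted value. *miR-30b* gave 22.9 to 53.9 reads of 5p per read of 3p in WT livers, against 11.8 to 37.2 in Mir483Pat-KO, a log2 difference of -0.57 (standard error 0.29, adjusted p = 0.315 by limma). *miR-30d* gave 6.11 to 11.7 in WT livers, against 4.91 to 9.66 in Mir483Pat-KO, a log2 difference of -0.29 (standard error 0.18, adjusted p = 0.443 by limma). The groups overlapped for both.

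**Figure D5:**
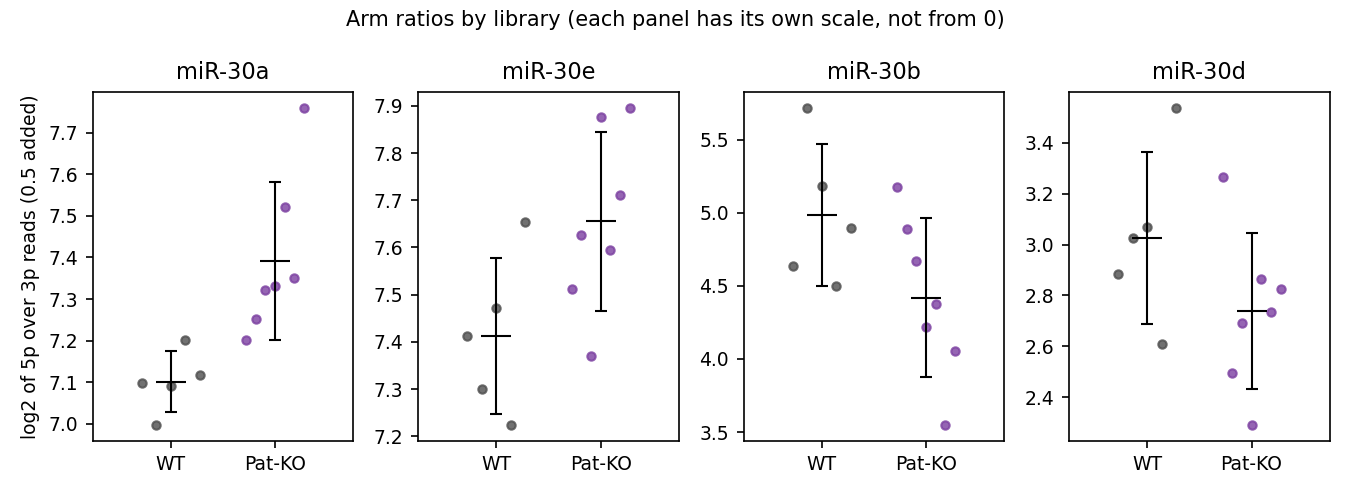
Log2 ratio of 5p to 3p reads, with 0.5 added to each count, of 4 *miR-30* hairpins in every WT (grey) and Mir483Pat-KO (purple) library, with black bars for the mean and SD (n = 5 and 7). The panels have separate axes that do not start at 0. For *miR-30a* the means are 7.10 in WT and 7.39 in Mir483Pat-KO, and the groups touch at 7.20.

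The members did not vary as a block from liver to liver. With the mean of each genotype taken off, log2 CPM of *miR-30a-5p* and *miR-30e-5p* had a Pearson correlation of 0.81 over the 12 libraries, the highest of the 21 pairs of members. The lowest was -0.62, between *miR-30b-5p* and *miR-30e-5p*, and *miR-30a-5p* had a correlation of 0.0032 with its own 3p strand. The pairs *miR-30b-5p* with *miR-30d-5p*, at 0.66, and *miR-30b-5p* with *miR-30c-5p*, at 0.64, were the next highest. These values describe 12 libraries that share their scaling. The split of reads between *miR-30a-5p* and *miR-30e-5p* is less certain than their sum, and its part in their correlation was not tested.

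Outside the family, the miRs whose levels followed the summed guide strands most closely were sought among the 136 miRs whose log2 CPM averaged at least 8, again with the mean of each genotype taken off. They were *miR-140-3p*, with a Pearson correlation of 0.86 (Spearman 0.75), *miR-25-3p*, with 0.69 (Spearman 0.68), *miR-127-3p*, with 0.66 (Spearman 0.59), *miR-106b-3p*, with 0.64 (Spearman 0.67), and *miR-370-3p*, with 0.62 (Spearman 0.56). Without the 2 libraries farthest from the median of the sum these were 0.73, 0.53, 0.65, 0.36 and 0.33, so the last 2 rested in good part on those libraries. *miR-25-3p* and *miR-106b-3p* come from a common cluster inside *Mcm7*, and *miR-127-3p* and *miR-370-3p* from the imprinted *Dlk1*-*Dio3* region. They are the top of 136 values, given as a description of these 12 libraries.

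Among miRs that mark cell types of the fetal liver, the lowest adjusted p in the edgeR test was 0.0892, in the epithelial list. An unadjusted p under 0.05 was found for 2 of 4 erythroid, 2 of 5 epithelial and 1 of 5 mesenchymal miRs tested. It was found for 0 of 3 hepatocyte, 0 of 3 white blood cell and 0 of 2 endothelial miRs, against 17.5% of all 388 miRs. The 2 epithelial miRs had opposite signs, with log2 fold changes of 0.39 for *miR-200a-3p* and -0.29 for *miR-429-3p*, the most abundant of that list. The 4 erythroid miRs summed to 23848 to 31974 CPM in WT and 25913 to 37810 CPM in Mir483Pat-KO, where 5 of 7 livers were above every WT liver, and all 4 had fitted log2 fold changes above 0, up to 0.34. The 5 miRs of biliary and other epithelium, which are *miR-200a*, *miR-200b*, *miR-200c*, *miR-141* and *miR-429*, summed to 1190 to 1996 CPM in WT and 1179 to 1659 CPM in Mir483Pat-KO. The 5 white blood cell miRs, of which 3 passed the filter, summed to 11343 to 14595 CPM and 13119 to 14813 CPM.

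The 2 strands of endothelial *miR-126a* summed to 953 to 1261 CPM in WT and 725 to 1221 CPM in Mir483Pat-KO. The 5 miRs of stellate and other mesenchyme summed to 30356 to 34341 CPM and 31140 to 36250 CPM. The 3 hepatocyte miRs were at 173613 to 201636 CPM in WT and 165442 to 214535 CPM in Mir483Pat-KO. No marker was at 0 in all libraries. The part of these cell types in the levels of *miR-30* was not tested.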

How the data were processed

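Small RNA libraries were made by the authors with the TruSeq Small RNA kit from total RNA of 5 WT and 7 Mir483Pat-KO livers and sequenced on a NovaSeq6000. Reads were aligned and counted with miRge 3.0, and the deposited values are read counts per mature miR, 1 column per library, neither normalized nor pooled. The miR reference, adapter trimming and mismatches allowed are not given in the sources used here. All 12 columns were assigned by the number, taken here as an animal number, that the sample labels also hold. Totals were 658665 to 1211160 counts, and the table holds no count of 1.

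miRs were filtered with edgeR's filterByExpr (minimum count 10, minimum total 15), which kept 388, and scaled by TMM. Genotypes were compared with edgeR 4.0.16 in R 4.3.3 (glmQLFit with legacy = TRUE, then glmQLFTest), genotype alone in the design, with Benjamini-Hochberg adjustment over the 388 miRs. Arm ratios were fitted with limma 3.58.1 over 95 hairpins, pairing rows whose names differ only in 5p or 3p. Shares were compared by two-sided exact permutation of library labels (792 arrangements, absolute difference of means, smallest p = 0.00126). WT and Mir483Pat-KO fetuses were littermates, but the litter of each fetus is not in the labels, so litter could not be fitted and p-values measure the spread between these fetuses. The code was tested on simulated data.

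The miRs named are the 7 members, the 4 other 3p strands, miRs with the same seed, *miR-483* as a check of the labels, and the 5 miRs outside the family closest to its summed level. Cell type miRs are a list of known markers. The members and lists were chosen with earlier results of these data known. Sequences and hairpin positions are from RefSeq on GRCm38.p6, host genes from GENCODE M21 on the same build. Alternatives in scaling and fit were RLE scaling, library size alone, TMM without the members, other filters, edgeR 4's own dispersion, DESeq2 1.42.0 and limma-voom. In another, reads of *miR-30a-5p* and *miR-30e-5p* were summed, as were those of *miR-30b-5p* and *miR-30c-5p*. Further alternatives were a block for the replicate number, the index number, the animal-number range and the lower range alone. The last were other pseudocounts, log-ratio shares, and leaving out each library. Figures were drawn with matplotlib 3.10.9. Target mRNAs were not analysed here.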

Additional observations from a re-analysis of the deposited data

Results flagged for a closer look

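Of 42 groups examined (21 measures in each genotype), 3 held a library whose gap to its nearest neighbour was over the limit for its group, 0.710 of the range for 5 libraries and 0.568 for 7. Chance alone gives such a gap in about 1 group in 20. WT replicate 1 had 13572 CPM of *miR-30c-5p*, against 10180 to 10734 CPM in the other WT livers (gap 0.837 of the range). The same liver had the highest share of *miR-30c-5p* in the 5p reads of the family, 10.9%, against 9.36% to 9.70% (gap 0.784). It also had the largest total, 1211160 counts. Mir483Pat-KO replicate 2, the library with the smallest total, had 129 CPM of *miR-30c-1-3p*, against 73.7 to 87.1 CPM in the other Mir483Pat-KO livers (gap 0.759), from 83 reads. The part of depth in these values was not tested.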

How the results depend on the processing

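Each result was recomputed under the alternatives listed with the methods and with each of the 12 libraries left out in turn. The number of members called, 0, was 1 with library size alone, 2 with DESeq2 (*miR-30d-5p* and *miR-30a-3p*) and 0 to 1 with a library left out. The log2 fold change was -0.30 with library size alone and -0.25 with DESeq2 for *miR-30d-5p*, and -0.21 with DESeq2 for *miR-30a-3p*. With the index number in the fit the sign turned for *miR-30a-5p* (-0.074), *miR-30b-5p* (0.095), *miR-30c-5p* (0.11), *miR-30e-5p* (-0.11) and the arm ratios of *miR-30a* (-0.074) and *miR-30e* (-0.065). The index order follows the genotype, so this fit cannot separate them, and the cause was not tested. In the lower animal-number range, where fewer libraries enter, the share differences fell short of the threshold at 0.84 for *miR-30a-5p*, -1.28 for *miR-30c-5p* and -0.14 percentage points for *miR-30d-5p*. As centred log-ratios they were -0.14 for *miR-30c-5p*, no longer past it, and 0.16 log2 units for *miR-30e-5p*, now past it (exact permutation p = 0.0290). With each library left out the log2 fold change was 0.055 to 0.14 for *miR-30a-5p*, -0.19 to -0.11 for *miR-30b-5p*, -0.29 to -0.15 for *miR-30c-5p*, -0.31 to -0.21 for *miR-30d-5p*, 0.026 to 0.091 for *miR-30e-5p*, -0.24 to -0.15 for *miR-30a-3p* and -0.24 to -0.13 for *miR-30e-3p*. The share differences were 1.62 to 2.19, -0.14 to -0.086, -2.07 to -1.46, -0.26 to -0.17 and -0.14 to 0.40 percentage points for *miR-30a-5p* to *miR-30e-5p* in order, with that of *miR-30e-5p* turning to -0.14 without WT replicate 1 and that of *miR-30b-5p* past the threshold without Mir483Pat-KO replicate 1 (-0.13) or 2 (-0.14). The arm ratio differences were 0.23 to 0.32 for *miR-30a* and 0.20 to 0.30 for *miR-30e*, and the summed level 0.038 to 0.095.

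The replicate numbers come from the labels, and libraries with the same number are different fetuses whose deviations from the group means had correlations of -0.24 to 0.23, so they do not pair the samples. With the replicate block the log2 fold change of *miR-30d-5p* was -0.20 and that of the *miR-30a* arm ratio 0.22, and 0 members were called. Over all miRs, calls numbered 8 (4 higher, 4 lower) against 14 (3 higher, 11 lower) when scaled by library size alone and 27 in DESeq2. They were 5 with the animal-number range, 3 with the replicate block or the index number, 2 in the lower range and 3 to 12 with a library left out. With RLE scaling they were 10 (4 higher, 6 lower), as with TMM computed without the members. Depth limited the 3p strands most, with as few as 18 reads of *miR-30b-3p* in a library.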
